A study of Homo sapiens with 4 samples.

Results

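The baseline described here is that of mock-transfected HCT-116 dicer- cells, as seen on the 2 mock arrays of a series of 4. The arrays were chosen by their labels, and the intensities of the other 2 arrays, each from cells given a miR-124 duplex at 10 nM, were not read. If RMA, the authors' processing, normalised the 4 arrays together, those arrays still shaped the scale of the mock values. The 2 mock arrays are named Control #1 and Control #2 and are called mock array 1 and mock array 2. Both hold total RNA taken 24 h after a mock transfection, amplified and labelled with biotin. Of 52377 probe sets, 35184 named a single gene. With a few sex-linked genes left out, 35143 were used, and they stand for 19769 genes. Of these genes, 11046 had 1 probe set and 8723 had several, of which the brightest stood for the gene.

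HCT-116 is an established human colon carcinoma line. Dicer is the ribonuclease that cuts precursor microRNAs and long duplex RNA into the short duplexes that Argonaute proteins take up. A line altered in Dicer is therefore known as a background that is poor in mature microRNAs of its own, which is why such lines are used to study transfected small RNAs. The labels say dicer- and give neither the allele nor the number of clones. Cells with unaltered Dicer and untransfected cells were not analysed here, so no level below is a change. Whether each mock array had a culture of its own is not stated, so their difference may be technical. With a single group of 2 arrays nothing was tested and no p-value is given.

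Levels are log2 intensities of the brightest probe set of a gene, and wherever a pair of levels is given, mock array 1 comes first. A gene was called bright when its mean over both arrays lay among the highest 25% of genes (at or above 9.70), dim when it lay among the lowest 25% (at or below 3.90), and middling in between. By construction 25% of genes were bright, 50% middling and 25% dim, the background for every count below. Probe sets differ in how strongly they hybridise, so a class says how bright the probe set was and not how abundant the transcript was, and genes are not ranked by abundance. Gene levels ran from 1.65 to 14.41 with a median of 6.65.

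The arrays gave nearly the same picture. Across the 19769 genes the levels had a Pearson r of 0.997 and a Spearman rho of 0.995, over genes that share 2 arrays and are not independent. On both arrays separately, 95.6% of genes fell in the same class, and 0 genes were bright on 1 array and dim on the other. The SD of the difference, mock array 2 minus mock array 1, was 0.24 over all genes. It narrowed with brightness, from 0.32 in the dim class through 0.29 and 0.16 in the lower and upper part of the middling class to 0.11 in the bright class. At least 1.5-fold apart were 638 genes, 3.23% of those measured, with 314 (1.59%) higher and 324 (1.64%) lower on mock array 2. Of these, 346 lay in the dim class, 282 in the lower and 10 in the upper part of the middling class, and 0 in the bright class.

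**Figure D1:**
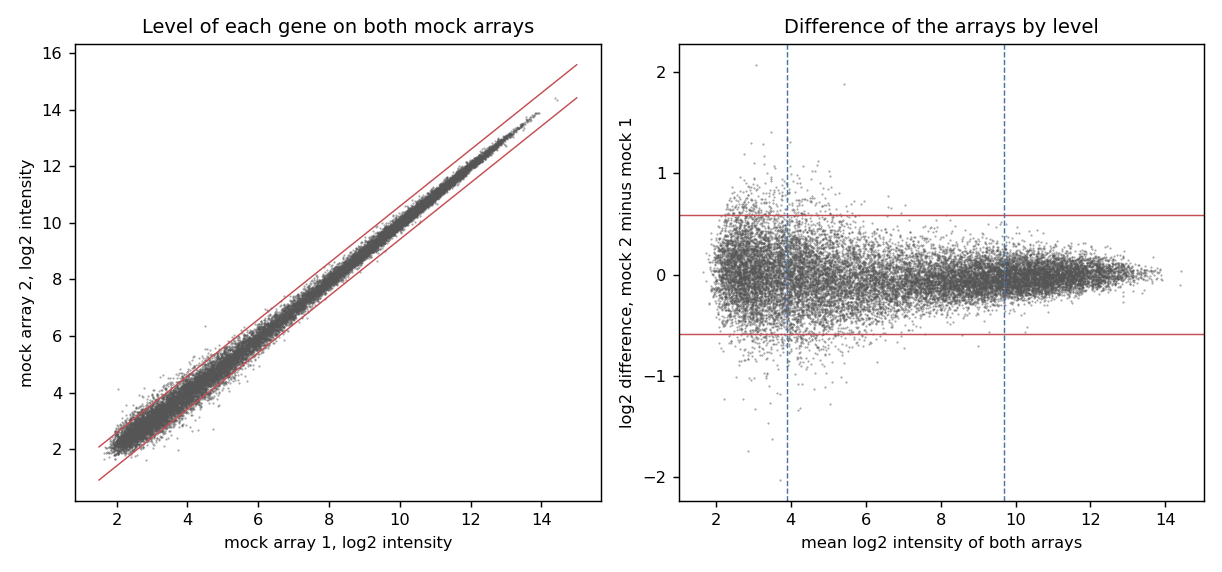
The left panel plots the log2 intensity of each of the 19769 genes on mock array 1 against mock array 2, with red lines at 1.5-fold apart, and the right panel plots the log2 difference of mock array 2 from mock array 1 against the mean, with dashed lines at the dim limit of 3.90 and the bright limit of 9.70. The cloud narrows toward bright genes, where the SD of the difference was 0.11 against 0.32 among dim genes.

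Genes that a colon line has little known use for give a reading of the low end of the scale. Olfactory receptors, the odorant receptors of the nasal epithelium, had 333 measured members, of which 283 were dim, 50 middling and 0 bright. Their median level was 2.91 and their 95th percentile 4.65. OR2A4 was the brightest of them at 8.09 and 8.22, followed by OR10H5 at 6.87 and 6.47. Of all genes, 13085 (66.2%) lay above that 95th percentile, and so did 8142 of the middling genes, while 1741 middling genes lay at or under it. A middling class therefore mixes genes inside and outside the range of the receptors. Other families of narrow known use were placed in the same low range. Dim were 22 of 28 taste receptors, 21 of 27 defensins, which are antimicrobial peptides, and 48 of 69 protocadherins, adhesion proteins of neurons. Of 66 keratin associated proteins of hair, 32 were dim and 1 was bright, KRTAP2-3 at 11.79 and 11.74.

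**Figure D2:**
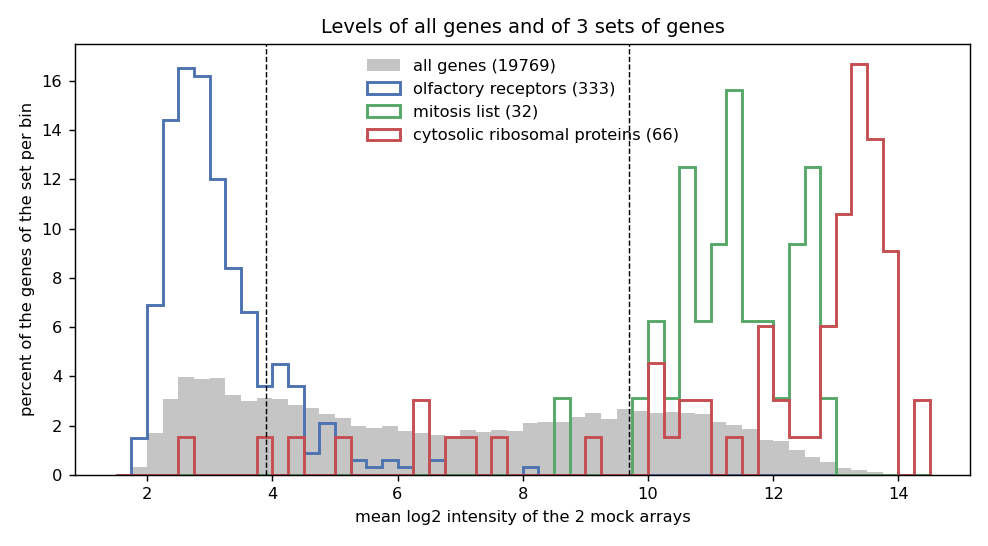
Percent of genes in bins of mean log2 intensity, for all 19769 genes (grey), 333 olfactory receptors, the 32 measured genes of the mitosis list and 66 cytosolic ribosomal proteins, with dashed lines at the class limits of 3.90 and 9.70. The receptors pile up around their median of 2.91 and the mitosis genes and ribosomal proteins around medians of 11.42 and 13.08.

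Epithelial markers were read next, which cannot tell HCT-116 from other epithelial lines. EPCAM, an adhesion molecule of epithelial cells, was bright at 13.01 and 13.06. Its other probe set read 12.34 and 12.61. CDH1, the E-cadherin of epithelial junctions, was bright at 11.07 and 11.00. KRT18, a keratin of simple epithelia, was middling at 8.86 and 8.96. The other KRT18 probe set was lower, at 6.20 and 6.65. All 3 lay above the 95th percentile of the olfactory receptors on both arrays, a limit that 66.2% of all genes passed by their mean. KRT8 was not analysed here. Of the 12 measured members of the wider epithelial list 5 were bright, 6 middling and 1 dim, with a median of 9.17. Besides EPCAM and CDH1, the bright members were ESRP1 (11.70 and 11.66), an epithelial splicing regulator, the junction protein CLDN7 (11.54 and 11.51) and the keratin KRT19 (11.08 and 11.14). The dimmest were CLDN3 at 7.53 and 7.17, the tight junction protein OCLN at 4.89 and 4.4, and CDH17, the cadherin of intestinal epithelium, at 3.14 and 3.37.

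Markers of mature colon epithelium were mostly dim. Of 22 measured genes of absorptive and goblet cells 14 were dim, 7 middling and 1 bright, and the median was 3.53. CA2, a cytosolic carbonic anhydrase, was the bright member at 10.79 and 10.67. CDX2, a homeobox factor of intestinal identity, was middling at 7.67 and 7.71, and the intestinal keratin KRT20 at 5.89 and 5.65. The other CDX2 probe set read 4.62 and 4.64, just under the 95th percentile of the olfactory receptors. GUCA2A, the guanylin peptide gene, read 5.05 and 5.24, just above the 95th percentile of the olfactory receptors. The dimmest members were CA1, the chloride exchanger gene SLC26A3 and the surface glycoprotein gene CEACAM5. CA1 read 2.78 and 2.74, SLC26A3 read 2.68 and 2.33, and CEACAM5 read 1.82 and 2.18. Further members, picked after their values were seen, were also at the low end. MUC2, the gel-forming mucin of goblet cells, read 3.15 and 2.84. VIL1, the microvillus protein villin, read 3.19 and 2.77, and FABP1, a fatty acid binding protein of absorptive cells, read 3.26 and 2.78. Of the 22 genes 17 had a single probe set, so a weak probe set could not be told from a low transcript for them.

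Crypt and stem cell markers split widely. Of 11 measured, 4 were bright, 5 middling and 2 dim. SOX9, a factor of crypt progenitors, was bright at 11.92 and 12.02. The surface proteins CD44 (11.83 and 11.99) and PROM1 (11.59 on both arrays) were bright too, as was RNF43, a ubiquitin ligase that removes Wnt receptors, at 11.11 and 10.98. At the other end were SMOC2 (4.47 and 4.73), OLFM4 (2.81 and 2.45) and LGR5 (2.25 on both arrays). LGR5 is the receptor that marks cycling stem cells at the crypt base, and it has a single probe set here. Enteroendocrine markers were 7 middling and 1 dim of 8, with the granule protein SCG2 highest at 7.05 and 7.06, followed by PYY (5.34 and 5.19), CHGB (5.14 and 5.07) and SST (4.81 and 4.65). The factor INSM1 was lowest at 2.69 and 2.70.

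Markers of cell types other than simple and intestinal epithelium were seldom bright when pooled, though not in the list of neurons and glia. Over 9 lists of other cell types, from squamous cells and fibroblasts to blood, nerve, liver and muscle, 78 genes were measured, of which 4 were bright, 46 middling and 28 dim. The bright genes were the keratin KRT10 (10.79 and 10.91), the myelin gene MBP (11.21 and 11.06), the beta tubulin TUBB3 (10.58 and 10.41) and the synaptotagmin SYT1 (10.08 and 10.13). KRT10 was 1 of 4 measured squamous markers. MBP, TUBB3 and SYT1 all belong to the list of neurons and glia. Of its 11 genes 3 were bright (27.3%), near the 25% of all genes, 7 middling and 1 dim, with a median of 5.49. For MBP the 5 probe sets ran from 4.23 to 11.21 on mock array 1, so its class rests on 1 of them. Among mesenchymal genes the brightest were the transcription factor TWIST1 (9.39 and 9.50), the filament protein VIM (9.51 and 9.35), the collagen chain COL1A1 (8.71 and 8.41) and the factor ZEB1 (7.89 and 8.17). All 4 were middling and above the 95th percentile of the olfactory receptors. CDH2, the N-cadherin, read 2.81 and 2.75, and the matrix genes SPARC (2.28 and 2.83), POSTN (2.23 and 2.88) and LUM (2.25 and 2.03) were dimmest. Leukocyte markers had none in the bright class among 19. PTPRC, the pan-leukocyte phosphatase, read 3.28 and 3.66, and the highest of the lymphocyte list was CD79B at 5.22 and 5.01. In the myeloid list CD68 led at 4.92 and 5.13, and S100A8 was lowest at 2.30 and 2.34.

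**Figure D3:**
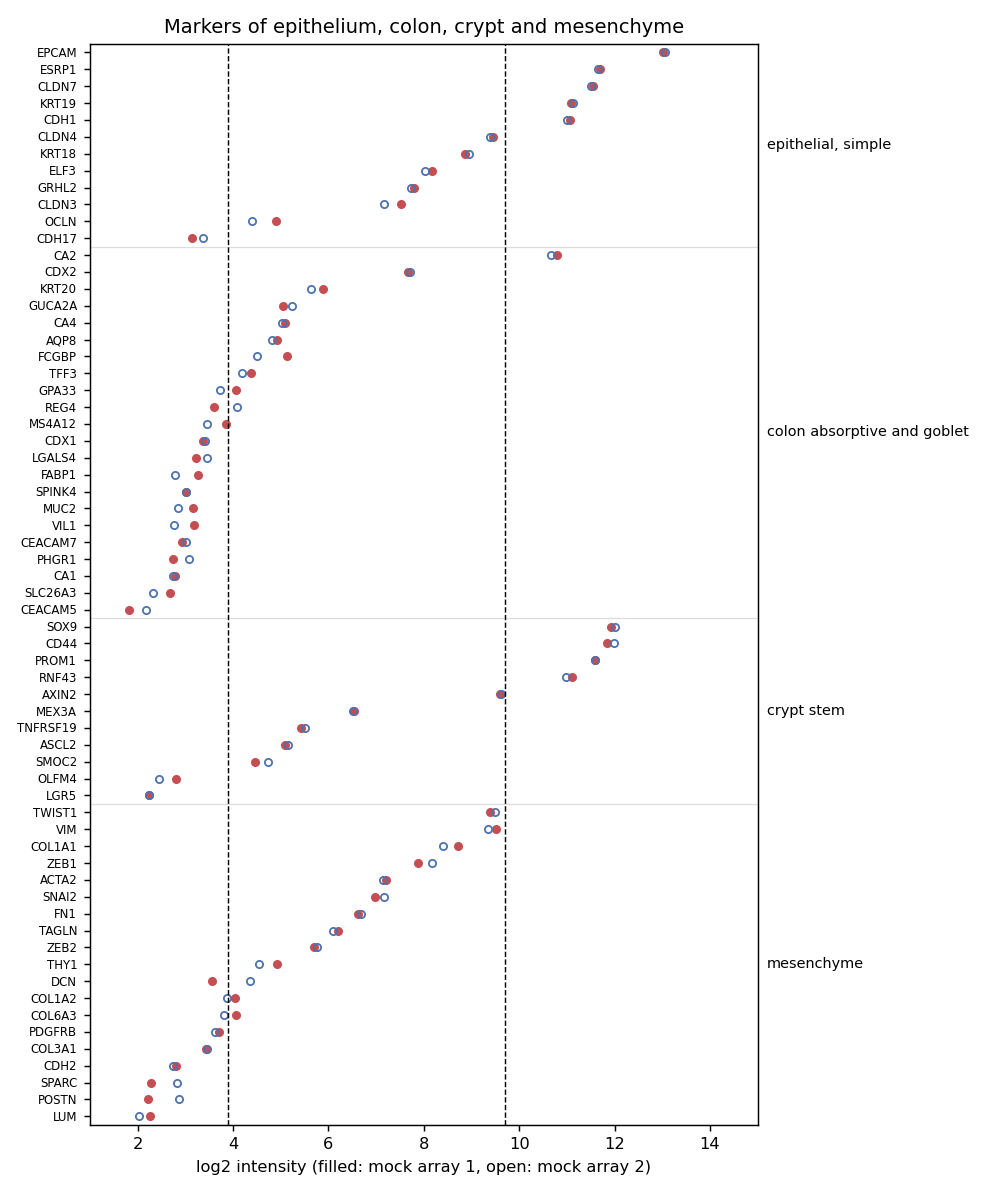
Log2 intensity of markers of simple epithelium, colon absorptive and goblet cells, crypt stem cells and mesenchyme on mock array 1 (filled) and mock array 2 (open), with dashed lines at the class limits of 3.90 and 9.70. EPCAM stands at 13.01 and 13.06, while 14 of the 22 colon differentiation genes lie in the dim class.

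The transcripts of the small RNA pathway mostly lay above the 95th percentile of the receptors, that of DICER1 itself included. DICER1 was bright at 11.21 and 11.28. Its 5 probe sets disagreed, with the others at 9.68 and 9.45, 8.72 and 8.52, 7.39 and 7.69, and 7.26 and 7.42. The arrays measure transcripts and say nothing of Dicer protein, and whether any probe set covers an altered part of the gene is not known here. Of the 30 measured genes of small RNA processing, 16 were bright, 10 middling and 4 dim, with a median of 10.17, against 25% of all genes in each outer class.

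Genes of the nuclear step were bright. DROSHA, the ribonuclease that frees the hairpin precursor, read 10.09 and 10.04, and its RNA-binding partner DGCR8 read 10.29 and 10.27. The export receptor XPO5 read 10.90 and 10.71 and its GTPase partner RAN 11.99 and 12.15. Of Dicer's RNA-binding partners, PRKRA was bright at 10.48 and 10.45 and TARBP2 middling at 8.99 on both arrays.

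The Argonautes, which carry the small RNA to its target, differed among themselves. AGO2, the Argonaute known to cut targets, read 10.47 and 10.37, and AGO1 read 10.31 and 10.29. AGO4 was middling at 7.17 and 6.82 and AGO3 at 5.68 and 5.85. AGO3 had a single probe set. The PIWI proteins of the germline were low, with PIWIL4 at 4.34 and 4.45, PIWIL1 at 4.33 and 3.57 and PIWIL2 at 2.93 and 2.91. PIWIL1 was the gene of this list at least 1.5-fold apart between the arrays.

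Further genes linked to silencing by Argonaute were bright or middling. The GW182 proteins TNRC6A (11.43 and 11.53) and TNRC6B (10.83 and 10.97) were bright and TNRC6C was middling at 8.99 on both arrays. The RNA helicase DDX6 was the brightest of the list at 12.82 and 12.79. GEMIN4 (11.73 and 11.55), an Argonaute-associated protein, and SND1 (10.35 and 10.28), a nuclease, were bright, and the helicase MOV10 was middling at 9.25 and 9.18. TSN (11.96 and 12.04) and TSNAX (12.03 and 12.18), which form the translin complex, were bright.

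Genes that tail, modify or destroy small RNAs, or block their maturation, fell in all 3 classes. The uridylyl transferases TUT7 and TUT4 read 10.70 and 10.72, and 8.25 and 8.31. DIS3L2, an exonuclease of uridylated RNA, read 8.38 and 8.18, and the endonuclease ZC3H12A 6.16 and 6.34. LIN28A (3.55 and 3.77) and LIN28B (3.74 and 3.48), the proteins that block let-7 maturation, were dim. The methyltransferase HENMT1 was lowest at 2.24 and 2.58.

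Genes known as let-7 targets of fetal tissue fell in all 3 classes. Of 13 measured genes of that list 5 were bright (38.5%), 5 middling and 3 dim (23.1%). Of all genes, 25% were bright and 25% dim by construction. The chromatin proteins HMGA1 (12.85 and 12.84) and HMGA2 (11.77 and 11.95) and the mRNA-binding proteins IGF2BP2 (12.54 on both arrays) and IGF2BP3 (11.19 on both arrays) led. IGF2BP1, the third member of that protein family, was middling at 5.44 and 5.36 with 4 probe sets. LIN28B, the cyclin gene CCND2 (3.08 and 2.96) and the ubiquitin ligase gene TRIM71 (2.75 and 2.86) were dim. With no unaltered cells analysed, none of these levels can be read as raised.

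**Figure D4:**
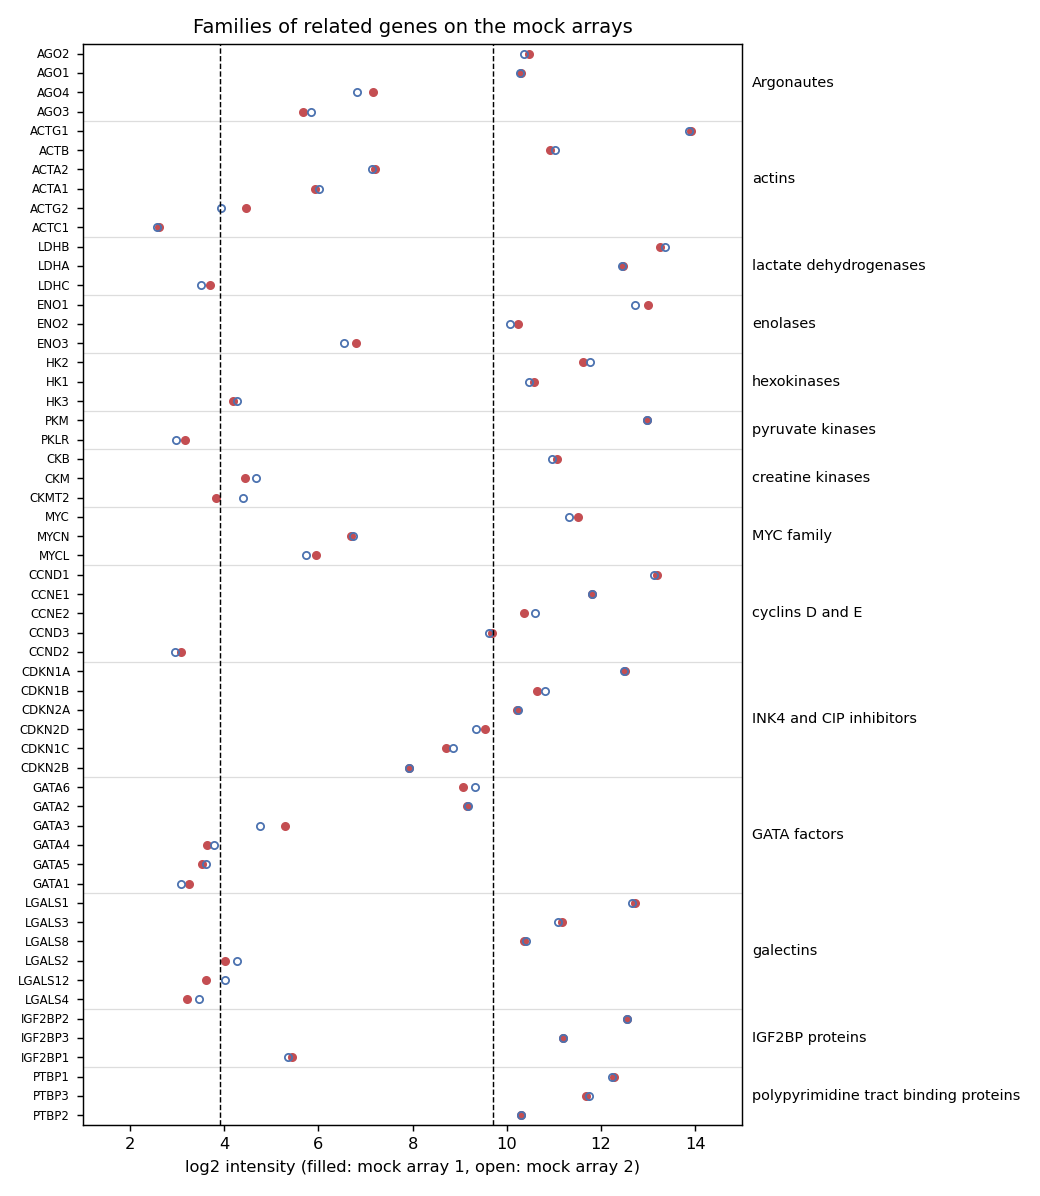
Log2 intensity of members of families of related genes on mock array 1 (filled) and mock array 2 (open), grouped by family, with dashed lines at the class limits of 3.90 and 9.70. In most families shown some members lie beyond the bright limit and others far below it, as with AGO2 and AGO1 near 10.4 and 10.3 against AGO3 near 5.8, and the pair of points of a gene lies close together.

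Hosts of microRNAs were then listed, a step added after values were seen. Many microRNAs are cut from introns of protein-coding genes, so the array can read the host transcript but not the microRNA. By RefSeq positions in GRCh38.p14, 738 of 1562 hairpins lay within a measured gene on its strand, in 662 genes. Of these, 245 were bright (37.0%), 346 middling and 71 dim (10.7%). Among the 15379 genes with a known strand 27.4% were bright and 23.2% dim. Hosts also had more probe sets, a median of 2 against 1, and among genes with a single probe set 29.4% of 269 hosts and 16.9% of 8254 genes were bright. The part of probe number and gene length in this was not tested beyond that split.

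The mature microRNAs below lie in bright hosts and are shown because they are the guides whose maturation needs Dicer, with the seed, bases 2 to 8, in capitals. They are RefSeq sequences, not measurements of these cells, and were picked as familiar families. They stand with shared seeds together, and each line gives the host and the position of the mature sequence in GRCh38.p14.
hsa-miR-15b-5p in SMC4, chr3:160404607-160404628, plus strand: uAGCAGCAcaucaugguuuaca
hsa-miR-16-5p in SMC4, chr3:160404754-160404775, plus strand: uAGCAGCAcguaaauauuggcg
hsa-miR-26a-5p in CTDSP2, chr12:57824658-57824679, minus strand: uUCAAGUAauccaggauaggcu
hsa-miR-26b-5p in CTDSP1, chr2:218402657-218402677, plus strand: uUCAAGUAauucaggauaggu
hsa-miR-30e-5p in NFYC, chr1:40754371-40754392, plus strand: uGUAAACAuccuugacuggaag
hsa-miR-30c-5p in NFYC, chr1:40757300-40757322, plus strand: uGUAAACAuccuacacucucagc
hsa-miR-106b-5p in MCM7, chr7:100094043-100094063, minus strand: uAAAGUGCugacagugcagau
hsa-miR-25-3p in MCM7, chr7:100093571-100093592, minus strand: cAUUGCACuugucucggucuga
hsa-miR-21-5p in VMP1, chr17:59841273-59841294, plus strand: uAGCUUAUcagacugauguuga
hsa-miR-98-5p in HUWE1, chrX:53556299-53556320, minus strand: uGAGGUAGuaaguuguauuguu

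The hosts of these microRNAs read as follows. SMC4, a condensin subunit, stood at 12.03 and 12.12, and NFYC, a subunit of the CCAAT-binding factor, at 11.78 and 11.84. CTDSP2 read 10.71 and 10.73 and CTDSP1 10.52 and 10.38, both small phosphatases of RNA polymerase. MCM7, a subunit of the replicative helicase, read 11.49 and 11.48, the autophagy gene VMP1 11.54 and 11.60, and the ubiquitin ligase HUWE1 11.78 and 11.87. Dim hosts included TRPM3 (2.70 and 3.34), which holds miR-204, TRPM1 (3.07 and 3.43), which holds miR-211, and MIR99AHG (2.87 and 2.83), which holds miR-99a and let-7c. The host transcripts of miR-124 itself, MIR124-1HG (3.56 and 3.02) and MIR124-2HG (2.93 and 2.68), were dim too. On the fixed list of 31 host transcripts 24 were measured, of which 7 were bright, 12 middling and 5 dim, and PANK2 (11.33 and 11.36), PANK3 (11.06 and 11.13) and MEST (10.98 and 10.96) followed MCM7 at its top.

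The brightest probe sets of the line were largely those of protein synthesis genes. Of the 25 brightest genes 15 encode cytosolic ribosomal proteins, and of the 100 brightest 33 do. RPL35A read 14.39 and 14.43 and RPS15A 14.44 and 14.34. After these came RPS16 (13.95 and 13.89), ACTG1 (13.90 and 13.87), which is the cytoplasmic gamma actin, RPS3 (13.88 on both arrays) and the long noncoding RNA SNHG16 (13.84 and 13.89). RPS25, RPL14, RPL31, RPS4X, RPL38, RPS6, RPL6, RPL8, RPS13, RPL30 and RPL13A made up the rest of the ribosomal genes in this set, all between 13.58 and 13.89. The other members were the ferritin light chain FTL (13.83 and 13.85), the chaperone HSPA8 (13.73 and 13.80), the myosin light chain MYL6 (13.65 and 13.68), the glutathione transferase GSTP1 (13.64 and 13.66), TPT1 (13.58 and 13.65) and the translation factors EIF3H (13.70 and 13.62), EEF1A1 (13.67 and 13.61) and EIF3E (13.59 and 13.63). The 2 arrays differed by at most 0.18 on these 25 genes, for RPS13 at 13.58 and 13.76.

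Of the 66 cytosolic ribosomal protein genes measured, 56 were bright, 8 middling and 2 dim, with a median of 13.08. The dimmest were RPL39L (4.44 and 4.16), RPL3L (3.88 and 3.71) and RPL21 (2.87 and 2.25). RPL39L and RPL3L are paralogues known from testis and from striated muscle. RPL21 is a constituent of every ribosome, and with its 1 probe set it read at the level of the olfactory receptors. Ribosomal protein genes have many near-identical pseudogenes, and how far a probe set reads them was not examined.

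Many ribosomal protein messages are known to begin with a C followed by a run of pyrimidines, the terminal oligopyrimidine tract through which their translation is controlled. A start with C and at least 4 further pyrimidines at the annotated first base was found in 36 of 54 ribosomal protein promoters (66.7%), in 6.63% of the promoters of all bright genes and in 4.63% of 13855 protein-coding promoters. Windows of 30 bases are shown for genes of the brightest set, from 10 before to 20 after the start, with the tract in capitals where the annotated start has one. RPL21 is added as the dim member, and RPS4X and RPL6 as bright members with no such tract at the annotated start. They come from RefSeq, GRCh38.p14.
RPL35A, chr3:197950180-197950209, plus strand: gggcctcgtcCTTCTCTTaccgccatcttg
RPS16, chr19:39435930-39435959, minus strand: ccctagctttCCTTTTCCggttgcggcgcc
RPS3, chr11:75399508-75399537, plus strand: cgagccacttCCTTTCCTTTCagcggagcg
RPS25, chr11:119018324-119018353, minus strand: gcagcgcttcCTTTTTgtccgacatcttga
RPL14, chr3:40457329-40457358, plus strand: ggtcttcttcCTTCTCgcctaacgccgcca
RPS6, chr9:19380217-19380246, minus strand: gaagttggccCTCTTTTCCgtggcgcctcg
RPL21, chr13:27251548-27251577, plus strand: ccgcctctttCCTTTCggccggaaccgcca
RPS4X, chrX:72277229-72277258, minus strand: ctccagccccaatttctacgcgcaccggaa
RPL6, chr12:112411423-112411452, minus strand: gtatcctcagtgaatcagaaccagaaaaag
The tract ran from 6 bases in RPS25, RPL14 and RPL21 to 11 in RPS3. It was present in 33 of 48 bright, 2 of 5 middling and 1 of 1 dim ribosomal promoters, so the dim reading of RPL21 went with a tract like those of its bright relatives.

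The rest of the translation machinery stood in the same range. Of 30 translation factors 28 were bright and 2 middling, EEF1D at 6.14 and 6.08 and EIF3F at 5.33 and 5.17, and 17 of 17 aminoacyl tRNA synthetases were bright, led by KARS1 (12.90 and 12.80), IARS1 (12.63 and 12.65), RARS1 (12.65 and 12.60) and TARS1 (12.46 and 12.47). Mitochondrial ribosomal proteins were bright in 69 of 73, with MRPS23 highest at 12.96 and 12.95 and MRPL33 lowest at 5.14 and 5.02. Of 31 chaperones 25 were bright, among them the chaperonin subunits CCT5 (13.47 and 13.46) and CCT3 (13.42 and 13.38) and the lectin chaperone CANX (13.34 and 13.32). The stress-induced HSPA6 was lowest at 4.59 and 4.51, next to the cyclophilin PPIA at 5.89 and 5.80 and HSPA1A at 6.01 and 6.08. Of 34 proteasome subunits 28 were bright, with PSMB4 highest at 13.59 and 13.55. The lowest were the immune subunit PSMB8 (4.28 and 4.31), the thymus subunit PSMB11 (3.35 and 3.10) and the testis subunit PSMA8 (2.61 and 2.54).

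RNA processing genes were mostly bright. Of 22 hnRNP genes 21 were bright, led by HNRNPU at 13.58 and 13.63, HNRNPA1L2 at 13.33 and 13.35, HNRNPA2B1 at 13.12 and 13.17 and HNRNPH1 at 12.96 and 13.05. HNRNPA1L2 is a near-identical copy of HNRNPA1, so their signals may not be separable. Of 12 SR splicing factors 9 were bright, with SRSF1 at 13.47 and 13.49, while SRSF2 was dim at 2.30 and 2.45 on its 1 probe set. Of 19 Sm and LSm proteins 15 were bright and 2 dim, LSM10 (3.31 and 3.52) and the neuronal SNRPN (2.63 and 2.87).

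Genes of energy metabolism and lipid synthesis were mostly bright, with a few dim or low ones. Of 18 glycolytic genes 14 were bright, with the lactate dehydrogenase LDHB (13.26 and 13.35), the triose isomerase TPI1 (13.30 and 13.26), the aldolase ALDOA (13.17 and 13.07) and the pyruvate kinase PKM (12.98 on both arrays) at the top. GAPDH, a glycolytic enzyme often taken as a loading control, was middling at 3.95 and 4.05, within the range of the olfactory receptors, and the phosphoglycerate mutase PGAM1 was dim at 3.33 and 3.03. Both had 1 probe set naming them alone. Of 16 citric acid cycle genes 11 were bright, led by the malate dehydrogenase MDH2 at 12.72 and 12.69, and the citrate synthase gene CS was dim at 3.57 and 3.25, again on 1 probe set. NADH dehydrogenase subunits were bright in 25 of 33 and dim in 0, with NDUFS4 highest at 12.41 and 12.40. Cytochrome c oxidase subunits were bright in 7 of 13 and dim in 4. Of the dim ones COX7A1 (3.05 and 2.87), COX8C (3.16 and 3.44) and COX7B2 (2.37 and 2.51) are tissue-restricted forms, and COX6A1 (3.67 and 3.72) is the general form. ATP synthase subunits were bright in 12 of 17, with ATP5F1A highest at 13.46 on both arrays and ATP5PB lowest at 2.71 and 3.14. Of 25 genes of sterol and fatty acid synthesis 19 were bright and 0 dim, led by the desaturase SCD (13.14 and 13.24), INSIG1 (12.54 and 12.61), MSMO1 (12.49 and 12.64) and EBP (12.36 and 12.34).

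Transcripts of dividing cells were mostly bright. Of 32 mitosis genes 31 were bright and 1 middling, with a median of 11.42. The checkpoint protein BUB3 (12.91 and 12.86), the ubiquitin carrier UBE2C (12.61 and 12.59), the checkpoint protein MAD2L1 (12.54 and 12.62) and the securin PTTG1 (12.60 and 12.56) were the brightest. The dimmest were the kinesin KIF2C (10.10 on both arrays), CENPE (9.86 and 9.87) and the phosphatase CDC25C (8.49 and 8.54). Of 39 replication genes 33 were bright and 0 dim, with the ribonucleotide reductase subunit RRM2 (12.78 and 13.0), RFC4 (12.43 and 12.36), the sliding clamp PCNA (12.32 and 12.48) and the nuclease FEN1 (12.20 and 12.19) at the top and the polymerase subunit POLD1 (7.70 and 7.51) lowest. MCM helicase genes were bright in 7 of 9, and centromere proteins in 9 of 20 with 0 dim.

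Histone genes did not follow the replication genes. Of 59 core and linker histone genes 3 were bright, 42 middling and 14 dim, with a median of 4.90. The bright ones were H2BC12 (10.54 and 10.48), H2AC20 (10.49 and 10.21) and H2AC6 (9.90 and 9.96). H2BC13 was lowest at 1.72 and 1.92. Replication-dependent histone messages end in a stem loop and lack a poly(A) tail, and whether the amplification used here started from the tail is not stated in the labels. The part of this in their levels was not tested. Copies of 1 histone share most of their coding sequence. Of the 59 genes 6 were at least 1.5-fold apart between the arrays, against 3.23% of all genes. That share depends on level, with 7.0% of all dim genes and 5.71% of the lower middling part that far apart. Most histone genes were middling or dim.

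Of 34 growth factor receptors 10 were bright, 15 middling and 9 dim, shares near those of all genes. MET, the hepatocyte growth factor receptor, read 12.45 and 12.50, AXL, the receptor of GAS6, 12.23 and 12.27, the collagen receptor DDR1 11.31 and 11.34 and RYK 11.01 and 11.14. EGFR stood at 10.61 and 10.55. FLT3 (3.42 and 3.04), ALK (2.97 and 2.74) and KIT (2.34 and 2.77) were the dimmest. Of 32 chemokines, interleukins and growth factors 5 were bright, and the EGFR ligand EREG led at 12.86 and 12.94, ahead of CXCL16, IL18 (10.94 and 11.07) and VEGFA (10.47 and 10.73). CXCL16 read 11.16 and 11.09, and IL33 (1.99 and 2.74) and CXCL10 (2.24 and 2.39) were lowest with CXCL5 (2.34 and 2.74). In the RAS, RAF and PI3K list 13 of 25 were bright, led by the phosphatases DUSP5 (12.60 and 12.65), DUSP6 (12.01 and 12.04) and DUSP4 (11.77 and 11.81), which switch off MAP kinases, and by the kinase subunit PIK3CB (11.79 and 11.78).

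The Wnt pathway held bright and dim ligands, receptors and antagonists. Of 30 targets and regulators 7 were bright, 17 middling and 6 dim, shares near those of all genes. The cyclin CCND1 (13.20 and 13.13), the effector beta-catenin, CTNNB1 (13.01 and 13.08), its DNA-binding partner TCF7L2 (12.69 and 12.66) and the antagonist DKK1 (11.96 and 12.07) were brightest. Other CTNNB1 probe sets read 5.88 and 6.51, and 4.10 and 3.81, so its class rests on the brightest. The ligand WNT5A (3.16 and 3.10), the secreted antagonist WIF1 (2.73 and 3.31) and LGR5 were dimmest, and SFRP5, another secreted antagonist, read 3.38 and 3.11. Among 19 Wnt ligands WNT9A was bright at 10.04 and 9.94 and 6 were dim. WNT16 stood next at 9.37 and 9.88. Among 10 frizzled receptors FZD6 was bright at 11.64 and 11.72, and FZD10 was lowest at 2.69 and 2.92.

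Cell cycle control genes differed within each small family. CCND1 was bright, CCNE1 read 11.80 on both arrays and CCNE2 10.37 and 10.60, while CCND3 lay just under the bright limit at 9.69 and 9.62 and CCND2 was dim. MYC read 11.51 and 11.32, against 6.70 and 6.74 for MYCN and 5.95 and 5.75 for MYCL. Of the kinase inhibitors CDKN1A (12.51 and 12.48), CDKN1B (10.63 and 10.80) and CDKN2A (10.22 and 10.24) were bright, and CDKN2D (9.54 and 9.35), CDKN1C (8.70 and 8.86) and CDKN2B (7.93 and 7.91) middling. In the p53 list 12 of 21 were bright and 0 dim. The death receptor TNFRSF10B led at 12.82 and 12.86, followed by CDKN1A, PMAIP1 (11.68 and 11.82) and GADD45A (11.76 and 11.73). Lowest were the kinase PLK3 (7.62 and 7.30), BBC3 (5.90 and 5.88) and the polymerase POLH (5.03 and 4.95). Of 24 apoptosis regulators 13 were bright, with the survival protein MCL1 highest at 12.25 and 12.14, and BMF (3.38 and 3.37) and BCL2A1 (3.40 and 2.37) lowest.

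Metabolic and structural paralogues likewise showed bright members beside middling or dim relatives. Among actins ACTG1 and ACTB (10.91 and 11.03) were bright, and the muscle forms ACTA2 (7.21 and 7.14), ACTA1 (5.93 and 6.02), ACTG2 (4.46 and 3.94) and ACTC1 (2.62 and 2.57) were not. LDHB and LDHA (12.47 and 12.44) were bright and the testis form LDHC was dim at 3.71 and 3.51. The enolases ENO1 (12.99 and 12.73) and ENO2 (10.24 and 10.07) were bright, and the muscle form ENO3 read 6.80 and 6.55. The hexokinases HK2 (11.61 and 11.76) and HK1 (10.57 and 10.48) were bright and HK3 read 4.2 and 4.28. PKM was bright and the liver and red cell form PKLR dim at 3.16 and 2.97. CKB, the brain form of creatine kinase, was bright at 11.07 and 10.96, against CKM at 4.44 and 4.67 and CKMT2 at 3.82 and 4.41. ALDOC, the brain form of aldolase, read 8.95 and 8.99.

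Tubulins were bright in 7 of 12 and dim in 0. TUBB read 13.02 and 13.00, TUBA1C 12.78 and 12.94, TUBB2A 11.82 and 11.87, TUBB6 11.57 and 11.52, TUBA4A 11.08 on both arrays and TUBA1A 9.82 and 10.23. The middling ones were TUBA1B (7.30 on both arrays), TUBB4A (6.79 and 6.70), TUBA8 (6.51 and 6.59), TUBB1 (6.17 and 6.15) and TUBB2B (3.98 and 4.36). The polypyrimidine tract binding proteins, splicing regulators, were bright in 3 of 3. PTBP1 read 12.27 and 12.24, PTBP3 11.69 and 11.75, and PTBP2, the form known from neurons, 10.30 and 10.31. Among cadherins CDH1 and CDH3 (10.52 and 10.49) were bright and CDH11 (3.53 and 4.18), CDH5 (3.24 and 3.37), CDH17 and CDH2 dim. The galectins LGALS1 (12.73 and 12.66), LGALS3 (11.18 and 11.09) and LGALS8 (10.37 and 10.41) were bright, LGALS2 was middling at 4.01 and 4.28, and LGALS12 (3.63 and 4.02) and the intestinal LGALS4 (3.22 and 3.47) were dim.

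Surface and matrix families ranged from mostly bright annexins to mucins with none bright. Of 25 integrin subunits 7 were bright, led by ITGB1 at 13.06 and 13.14, ITGA6 at 12.62 and 12.81, ITGAE at 11.00 and 10.84 and ITGAV at 10.44 and 10.63. The lowest were ITGAM (3.33 and 2.74), ITGAD (2.65 and 2.70) and ITGA4 (2.37 and 2.66). Of 11 annexins, calcium-dependent membrane binders, 8 were bright, with ANXA1 at 13.13 and 13.16. Of 18 S100 proteins 6 were bright, with S100A11 at 12.89 and 12.83. Collagen chains had 2 bright of 43, COL12A1 (10.65 and 10.64) and COL6A1 (mean 10.19 ± 0.11, SD, n = 2), and laminin chains 2 of 10, LAMC1 (11.81 and 11.82) and LAMB3 (11.20 and 10.98). Of 21 matrix metalloproteinases 1 was bright, MMP15 at 9.77 and 9.65, and 10 were dim. Keratins had 2 bright of 44, KRT19 and KRT10, and claudins 2 of 21, CLDN7 and CLDN12 (9.74 and 9.92). Mucins had 0 bright and 8 dim of 15, the highest being MUC1 at 7.28 and 7.10.

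Transcription factor families were mixed. GATA6 (9.07 and 9.33) and GATA2 (9.16 and 9.17) were middling, GATA3 read 5.28 and 4.76, and GATA4 (3.64 and 3.78), GATA5 (3.53 and 3.63) and the erythroid GATA1 (3.25 and 3.08) were dim. The bright HOX genes measured lay in the B cluster, with a single gene of the A cluster measured, HOXA2, which was middling at 6.26 and 6.39. HOXB7 (11.40 and 11.49), HOXB8 (10.78 and 10.64), HOXB5 (9.98 and 9.81) and HOXB4 (9.75 and 9.74) were bright among 10, while 0 of 9 HOXC and 0 of 8 HOXD genes were. The highest of these were HOXC6 at 8.88 and 8.71 and HOXD8 at 7.66 and 7.59. Of 19 SOX factors SOX9 was the bright one, with SOX4 next at 9.78 and 9.62. Of 17 KLF factors 4 were bright, KLF6 (12.22 and 12.17), KLF10 (11.30 and 11.42), KLF5 (11.16 and 11.15) and KLF16 (10.38 and 10.20). E2F factors, which drive S phase genes, were bright in 4 of 8 with E2F3 highest at 11.59 and 11.69. Of 40 forkhead factors 9 were bright, led by FOXO3 at 11.55 and 11.59. The 466 measured zinc finger genes named ZNF held 50 bright (10.7%), 309 middling and 107 dim, with ZNF207 highest at 12.10 and 12.23.

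Chromatin repressors were bright in 15 of 25, led by CBX3 (12.63 and 12.60), HDAC2 (12.65 and 12.57), CBX1 (12.40 and 12.48) and RBBP7 (12.09 and 11.98), with the maintenance methyltransferase DNMT1 at 11.04 and 10.95. EHMT2 was lowest at 3.71 and 3.90 on 1 probe set. Cancer-testis antigens, germline genes that some tumours express, were dim in 15 of 19. MAGEB2 was the bright one at 11.52 and 11.54, and PRAME was middling at 9.24 and 9.13. SSX1 was lowest at 1.77 and 1.71.

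Of 20 antigen presentation genes 6 were bright, 11 middling and 3 dim, shares near those of all genes, with B2M, the light chain of class I molecules, at 12.72 and 12.69 and HLA-C at 11.73 and 11.96. The class II genes HLA-DPB1 (2.67 and 2.68) and HLA-DPA1 (2.03 and 2.56) and their activator CIITA (3.15 and 2.98) were dim. Of 25 interferon response genes 17 were middling, 4 dim and 4 bright, the last being IFITM3 (12.63 on both arrays), ISG15 (10.46 and 10.28), OAS3 (10.21 and 10.05) and IFI6 (9.95 and 9.83). OAS1 (4.08 and 3.42), OAS2 (3.49 and 3.44) and the interferon gene IFNB1 (2.78 and 2.92) were lowest.

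Transport and detoxification families were largely middling or dim. Of 351 solute carriers 75 were bright, near the 25% of all genes, led by the mitochondrial carriers SLC25A3 (13.14 on both arrays) and SLC25A5 (13.10 on both arrays) and the glucose transporter SLC2A1 (12.87 and 12.90). Potassium channels had 1 bright of 90, KCNK1 at 10.51 and 10.53. Cytochrome P450 enzymes had 2 bright of 48, the sterol demethylase CYP51A1 (mean 11.84 ± 0.22, SD, n = 2) and the vitamin D hydroxylase CYP24A1 (10.51 and 10.67). UDP glucuronosyltransferases were dim in 7 of 7, from UGT2B10 at 3.38 and 2.90 to UGT2A3 at 1.89 and 1.94. Each had 1 probe set.

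**Figure D5:**
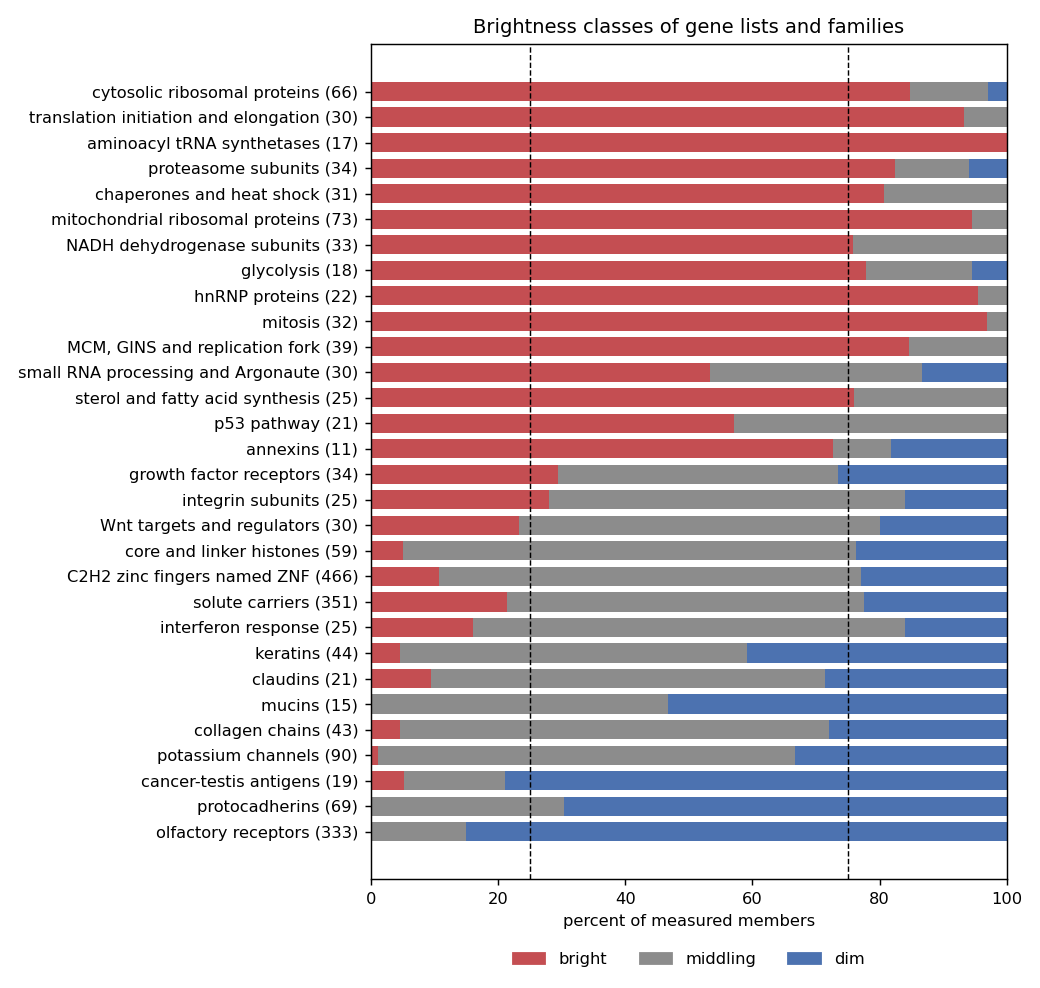
Percent of measured members that were bright, middling or dim for 30 gene lists and families, with the number measured in brackets and dashed lines at 25% and 75%, where the bright class would end and the dim class begin if a family were like all genes. Aminoacyl tRNA synthetases are bright in 17 of 17, while olfactory receptors are bright in 0 and dim in 283 of 333.

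By kind of gene, 4893 of 16992 protein-coding genes were bright (28.8%) and 20.2% dim, while 27 of 2106 long noncoding RNA genes were bright (1.28%) and 57.1% dim. Of the noncoding genes 88.5% had 1 probe set, against 50.7% of the coding genes. The brightest noncoding RNAs were mostly hosts of small nucleolar RNAs, with SNHG29 (12.75 and 12.73), SNHG1 (12.39 and 12.36) and SNHG6 (11.99 and 12.07) after SNHG16, and HIF1A-AS2, an antisense transcript, at 12.47 and 12.56. The array's strand handling is not stated, so an antisense gene may not be separable from its partner. NEAT1 (3.51 and 4.07) and NORAD (2.56 and 2.47) were dim and RMRP, an RNA of the ribonuclease MRP particle, stood at 3.98 and 3.88, each on 1 probe set. MALAT1, an abundant nuclear RNA of many cell lines, read 5.38 and 5.52 on the brightest of 3.

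Bright and dim genes also differed in the sequence before their start, which the classes did not use. Promoters here are RefSeq windows of GRCh38.p14, from 250 bases before to 50 after the annotated start, for 13855 of 16992 protein-coding genes. A window was called CpG-rich when its GC content exceeded 50% and its CG pairs exceeded 0.6 of the number its base composition predicts. CpG-rich were 87.3% of 4191 bright, 66.4% of 6922 middling and 30.7% of 2742 dim genes. Median GC content was 65.3%, 64.3% and 52%, and the median number of CG pairs 27, 23 and 6. Among genes with a single probe set the CpG-rich shares were 86.8%, 62.0% and 26.9%. These shares are a description across genes that are not independent.

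Most short motifs searched, as counts of letters and not of bound sites, also differed between the classes. The TATA box, TATAAA on the sense strand 16 to 40 bases before the start, stood in 1.31% of bright, 3.0% of middling and 7.99% of dim windows, against 3.48% of all. CCGGAAG, the ETS box, on either strand stood in 23.3%, 13.1% and 4.85%, against 14.6% of all. GGGCGG, the SP1 or KLF box, on either strand stood in 72.9%, 63.5% and 32.9%, against 60.3% of all, and these GC-rich letters overlap with GC content. The CCAAT letters bound by NF-Y, on either strand, were near equal, at 37.9%, 35.1% and 36.9%. By list they stood in 73.1% of 26 mitosis, 58.8% of 34 replication and 53.3% of 15 colon absorptive and goblet windows, against 36.3% of all. Shares were 51.6% of 31 keratin, 50% of 30 proteasome, 46.7% of 15 cancer-testis and 43.2% of 266 olfactory receptor windows. The translation list stood near all windows, at 36.4% of 22. Lower were 29.6% of 54 cytosolic ribosomal, 29.2% of 65 mitochondrial ribosomal and 25% of 4 UDP glucuronosyltransferase windows. AAGATGGCG, the YY1 box, stood in 5.18% of bright and 0.584% of dim windows, in 11.1% of ribosomal and in 18.5% of mitochondrial ribosomal protein windows, against 2.89% of all. The ETS and YY1 letters each hold a CG pair, and dim windows had fewer CG pairs. The part of CG content in these shares was not tested. Of 31 keratin windows 48.4% held the TATA box and 0% were CpG-rich, and of 266 olfactory receptor windows 1.5% were CpG-rich.

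The contrast can be read in single promoters. The 250 bases before the start are shown for bright DICER1 and for the dim colon genes MUC2, FABP1 and CEACAM5 and the dim UGT2A3, with each CG pair in capitals. They are RefSeq sequences of GRCh38.p14, picked after the classes were known, and methylation was not measured.
DICER1, chr14:95157530-95157779, minus strand: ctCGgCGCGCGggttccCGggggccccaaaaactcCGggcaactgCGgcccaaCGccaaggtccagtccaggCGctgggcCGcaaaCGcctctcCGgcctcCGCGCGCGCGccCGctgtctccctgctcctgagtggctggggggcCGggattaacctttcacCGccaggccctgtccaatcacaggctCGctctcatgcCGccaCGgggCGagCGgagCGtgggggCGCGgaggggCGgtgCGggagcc
MUC2, chr11:1074624-1074873, plus strand: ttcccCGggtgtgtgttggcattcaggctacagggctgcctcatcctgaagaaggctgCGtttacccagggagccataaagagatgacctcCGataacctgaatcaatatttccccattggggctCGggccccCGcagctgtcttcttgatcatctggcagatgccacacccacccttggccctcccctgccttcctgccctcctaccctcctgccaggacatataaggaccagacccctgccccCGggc
FABP1, chr2:88128063-88128312, minus strand: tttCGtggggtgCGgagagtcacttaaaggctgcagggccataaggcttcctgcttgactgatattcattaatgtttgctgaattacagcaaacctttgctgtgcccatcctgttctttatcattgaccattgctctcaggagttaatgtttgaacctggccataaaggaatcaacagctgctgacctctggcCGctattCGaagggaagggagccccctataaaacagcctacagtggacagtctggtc
CEACAM5, chr19:41708376-41708625, plus strand: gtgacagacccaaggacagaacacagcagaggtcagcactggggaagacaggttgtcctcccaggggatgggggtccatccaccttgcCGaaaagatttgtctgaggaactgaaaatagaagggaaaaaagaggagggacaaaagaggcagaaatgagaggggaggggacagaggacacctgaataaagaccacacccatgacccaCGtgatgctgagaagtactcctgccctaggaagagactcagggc
UGT2A3, chr4:68951805-68952054, minus strand: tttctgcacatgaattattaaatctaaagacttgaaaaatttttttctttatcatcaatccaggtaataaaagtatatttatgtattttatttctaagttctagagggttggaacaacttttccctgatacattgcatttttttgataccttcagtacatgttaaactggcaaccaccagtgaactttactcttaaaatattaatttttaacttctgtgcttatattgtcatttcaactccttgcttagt
The DICER1 stretch holds 30 CG pairs at 74% GC, MUC2 and FABP1 hold 6 and 4, CEACAM5 holds 2 and UGT2A3 holds 0 at 28% GC. Of the 15 colon absorptive and goblet genes with a window 6.67% were CpG-rich, whereas 96.2% of the mitosis windows were.

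Over all genes the difference of mock array 2 from mock array 1 ran from -2.03 to 2.07 on the log2 scale, and both extremes lay in the dim class. The genes named next are the 8 farthest apart each way among those above the median level. Lower on mock array 2 were the formin INF2 (7.38 and 6.65), the histone H4C3 (9.35 and 8.64), the RNA-editing enzyme ADARB1 (7.16 and 6.5), the chromatin remodeller CHD5 (7.24 and 6.64), TMEM138 (8.87 and 8.28), the histone H2AC14 (7.89 and 7.30), the peptide transporter TAP2 (10.55 and 9.98) and SLC2A4RG (9.58 and 9.02). Higher on mock array 2 were the kinase ROCK1 (6.72 and 7.40), FBXO8 (6.35 and 7.01), GAL3ST4 (6.64 and 7.24), MPZL2 (7.86 and 8.45), the cyclin CCNJ (7.62 and 8.16), ANKRD19P (6.89 and 7.43), ULBP2 (8.0 and 8.53) and WNT16. The folds between the arrays ran from 1.43 for WNT16 to 1.65 for INF2. Over the 69 lists and families with 10 or more measured members the median difference ran from -0.23, in the lymphocyte list, to 0.09, in the cancer-testis antigens.

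The choice of probe set mattered more than the choice of array. Among the 8723 genes with several probe sets the range from the brightest to the dimmest had a median of 1.78 on the log2 scale, and it exceeded 1 in 67.0% and 3 in 30.4% of them. The median absolute difference between the arrays for the brightest probe set of these genes was 0.10. All probe sets of a gene fell in 1 class in 55.3%, and 295 genes had both a bright and a dim probe set. HSP90AA1, a cytosolic chaperone, had the widest range, 11.23, with its brightest probe set at 13.11 and 13.13. Among the 25 brightest genes EEF1A1 had a range of 10.85 and RPL31 of 10.71, whereas RPL8 had 0.06 and MYL6 0.11. The other probe set of ACTG1, also in that set, read 5.45 and 5.92. The share of bright genes rose with the number of probe sets, from 14.9% with 1 through 31.7%, 39.6% and 48.9% with 2, 3 and 4 to 59.5% with 5 or more. Taking the brightest probe set favours genes with many by construction, and the part of this in the rise was not tested. GAPDH, RPL21, SRSF2 and CS, which read low above, each had 1 probe set.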

How the data were processed

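Intensities were deposited by the authors as 1 linear intensity per probe set and array, made with RMA per the submitters' processing notes, with no version named. RMA corrects background and normalises by quantiles over the arrays processed together. Which arrays those were is not stated, so the treated arrays may have shaped the scale of the mock values. Only the 2 mock columns were read, and log2 was taken with a pseudocount of 0. Probe sets were named by GEO's platform annotation, with symbols updated through Entrez identifiers to RefSeq (GRCh38.p14). Of 52377 probe sets 35184 listed 1 gene, 374 several and 16819 none. A few sex-linked genes were left out of every count. The files name no build, so the array data carry no coordinates, and those printed belong to the RefSeq sequences (GRCh38.p14).

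The probe set with the highest mean over both mock arrays stood for a gene. No test was run. Depth does not apply to arrays, and 2 arrays limit the precision. Counts of classes and differences were computed with Python 3.11.15, pandas 2.3.3, NumPy 2.4.6 and SciPy 1.17.1, and figures with Matplotlib 3.10.9. The classes and differences were tested on simulated data, with noise equal at all levels and smaller than that of the dim and middling classes here. That check therefore does not bear on differences among dim or middling genes. Members and lists were chosen with earlier results of these data known.

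Named genes follow a rule: the 25 brightest, the markers, all genes of the small RNA list and of the small paralogue families, up to 4 brightest and 3 dimmest of other lists, and the 8 farthest apart each way above the median level. CDX2, EGFR, SFRP5, PPIA, HSPA1A, CD68, PTPRC, DNMT1, GUCA2A, COX6A1, MALAT1, RMRP and some other single members were added after their values were seen. Alternatives covered probe set choice, scaling, a pseudocount of 16, filters and leaving out an array.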

Additional observations from a re-analysis of the deposited data

How the results depend on the processing

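The count of 638 genes at least 1.5-fold apart became 32 with a pseudocount of 16, 56 without the lowest 40% of genes by level and 47 at 2-fold, while 3 other choices of probe set summary or scaling gave 489 to 655. With the dimmest probe set per gene, 36 ribosomal protein genes were bright in place of 56. Among genes with 1 probe set, with class limits set again, bright counts were 19 of 27 ribosomal, 17 of 17 mitosis, 2 of 4 epithelial and 0 of 17 colon genes, where fewer members enter by construction. The median range among probe sets was 1.77 to 1.80 when either array was left out and 3.0 over bright genes alone. With a gene's probe sets averaged, 87.2% of bright and 32.3% of dim genes were CpG-rich. Over 99 list counts, 97 and 98 stayed within 1.5 times without mock array 1 or 2, 89 with the mean of probe sets, 77 with class limits set to give 3 equal classes, 73 with the dimmest probe set and 43 with 1 probe set. Against its main class, 72.9% of genes kept theirs with the dimmest probe set, and 160 went from bright to dim. No paired analysis was possible because a single group was described and no test was run. Signal near the level of the olfactory receptors limits what a dim reading can say.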

Other observations

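Probe sets that the annotation lists under no gene entered none of the above. On the mock arrays these 16819 probe sets had a median of 4.14 on the log2 scale, against 6.55 for the named ones. Of them 1101 (6.55%) lay at or above the bright limit and 7593 (45.1%) at or below the dim limit, and the highest read 14.30. Their levels had r = 0.993 between the arrays, and the SD of the difference was 0.29.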
